A study of Zea mays subsp. mays with 8 samples.

Results

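Transcription start sites of maize roots were compared between the inbred line B73 and a second inbred line, using 32926 root start-site clusters out of 75681 clusters in the whole series. The members are the 14568 clusters of the root set named B73 and the 18358 clusters of the root set named Mo17. The other 42755 clusters belong to the 2 shoot sets and serve here for comparison. The labels call the second line A632 while the files call it Mo17, so it is written "Mo17-named" throughout and which line it is was not settled here. Both names belong to maize inbred lines.

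The method was CAGE (cap analysis of gene expression), in which RNA is caught by its 5′ cap and a short tag is read from its first bases. RNA polymerase II often starts at several neighbouring bases, and such bases are joined into a cluster whose most used base is its dominant site. Sharp clusters, with most starts at 1 base or a few, are typical of promoters with a well placed TATA box, and broad clusters of promoters without one. Lines of maize differ widely in sequence, including genes and transposable elements present in one line and missing from another, so a start site of one line may have no counterpart in the other.

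Wild-type, untreated B73 and A632 seedlings had 16 h of light (27 °C) and 8 h of dark (21 °C) and were harvested at 14 days, with shoots and roots kept apart. There were 8 libraries in 4 groups of 2. A library held pooled tissue of 5 seedlings and was made from 5 µg of total RNA, with 27 bp tags. B73 root libraries had 16 PCR cycles and all others 14, so this difference cannot be told apart from the B73 root group. The files give 1 pooled value per cluster and set, so replicate spread could not be measured, no comparison below has a replicate check and no p-value is given. Intervals are 95% intervals that cover counting error only, because each set has 1 pooled value per cluster. The protocol describes no molecular identifiers that would set PCR copies apart from original molecules. Tags may thus include copies, and intervals of tag ratios may be too narrow. The files name no genes, and no source used here states their genome build, so loci are given by the files' own coordinates, no sequence is shown and the root identity of the samples was not checked against marker genes.

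The cluster signal is a value that the authors normalized to a power law, in which each tag number is raised to an exponent. The exponent was 1.09 in the B73 root set and 1.01 in the Mo17-named root set, and 1 tag was worth 0.133 and 0.138 units. Inverting the law gave the tags at dominant sites, which summed to 1267305 in B73 root and 2797561 in Mo17-named root, a median of 19 and 29 tags per cluster. Summed signal was 492155 and 618722. The B73 root set is thus the shallower one, and comparisons are given both on signal and on scaled tags, which are dominant-site tags per 1000000 dominant-site tags of the set. Because a tissue was sampled whole, fewer cells of a type and less RNA per cell cannot be told apart in any value below.

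The strongest start sites were shared by both root sets but took unequal parts of them. The strongest cluster of either set had its dominant site at position 1079094 of chromosome 4 (plus strand). Its signal was 73498 in B73 root and 118886 in Mo17-named root, which was 14.9% and 19.2% of all signal, and its dominant site held 97890 and 509249 tags. These were 7.72% of B73 root tags and 18.2% of Mo17-named root tags. By tags it led the Mo17-named set alone. The next cluster, at position 18759495 of chromosome 2 (minus strand), went the other way, with a signal of 52751 in B73 root and 18470 in Mo17-named root. It led B73 root by tags, with 134296 (10.6%), and had 111285 (3.98%) in Mo17-named root. At this locus 97.7% of the B73 root signal sat on 1 base, the same base as in the Mo17-named set, where it took 91.3%. At position 34240659 of chromosome 10 (plus strand) the signal was 17090 in B73 root and 4945 in Mo17-named root. A cluster on the minus strand of chromosome 4 had 16008 in B73 root, with its dominant site at 152459616, and 9184 in Mo17-named root, with its dominant site at 152459619. Both shoot sets also had their dominant site at 152459619. These 4 loci were among the 5 strongest of both sets. The fifth of B73 root, at 178504715 of chromosome 1 (minus strand), had a signal of 3171 there and 168 in Mo17-named root, where its dominant site lay 91 bp away. In contrast, the fourth of Mo17-named root, at 222643883 of chromosome 1 (plus strand), had 5022 there and 2403 in B73 root. The 10 strongest clusters held 35.7% of B73 root signal and 27.9% of Mo17-named root signal, against 6.55% and 7.30% in the shoot sets of the same names, so both root sets rest on a few loci. On tags, which the exponent does not stretch, the 10 strongest held 26.8% and 28.7% in root and 11.5% and 14.4% in shoot. The root sets thus differed less from the shoot sets on tags, and the exponents of the shoot sets were 0.888 and 0.877.

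Most B73 root clusters had a Mo17-named root cluster at the same place, and the reverse held less often. A partner, a cluster on the same strand overlapping by at least 1 bp, existed for 11723 of 14568 B73 root clusters, 80.5% (Wilson interval 79.8 to 81.1). It existed for 11832 of 18358 Mo17-named root clusters, 64.5% (63.8 to 65.1). The 2845 B73 root clusters without a partner held 5.90% of their set's signal, and the 6526 Mo17-named ones held 6.15%. In the shoot sets the same shares were 80.8% of B73 clusters and 70.9% of Mo17-named clusters, so in both tissues the set with more clusters and more tags had the lower share. By chromosome the root share ranged from 77.8% on chromosome 9 to 85.8% on chromosome 10 for B73, and from 62.0% on chromosome 4 to 66.6% on chromosome 8 for the Mo17-named set.

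The gap between the sets lay among weak clusters. Of clusters with a signal under 1, 60.8% of 1334 in B73 root and 28.0% of 1166 in Mo17-named root had a partner. At a signal of 2 to 5 the shares were 74.8% of 3992 and 40.6% of 4993, and at 5 to 10 they were 83.9% of 3000 and 64.5% of 3997. From 10 to 100 they met, at 90.6% of 4320 and 90.4% of 6376. Among the strongest clusters, with a signal of 100 and over, the order turned, with 92.3% of 534 B73 root clusters (89.7 to 94.3) and 97.6% of 757 Mo17-named root clusters (96.3 to 98.5) having a partner. By tags the order did likewise: at 1 to 5 tags 64.2% and 32.0% had a partner, and at 100 to 1000 tags 90.1% and 93.5%.

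**Figure D1:**
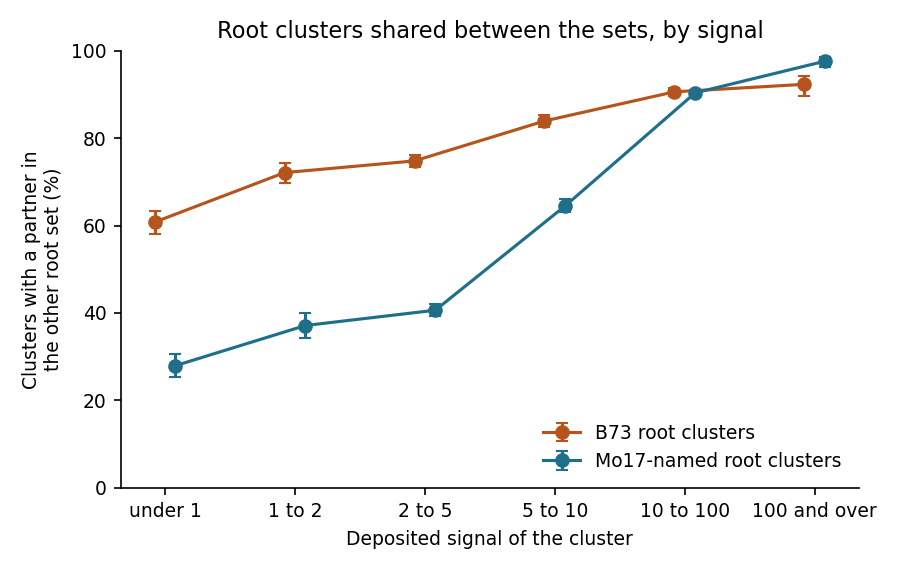
Share of root clusters with a same-strand partner in the other root set (vertical axis, percent), by the deposited signal of the cluster (horizontal axis, 6 classes), for the B73 root set and the Mo17-named root set. Bars are 95% Wilson intervals. The sets differ below a signal of 10 and meet at about 90% from 10 to 100.

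Strong B73 root clusters with no Mo17-named root partner were mostly also present in B73 shoot and missing from Mo17-named shoot. Of the 41 such clusters with a signal of 100 and over, 36 (87.8%, Wilson interval 74.5 to 94.7) overlapped a cluster of the B73 shoot set alone. Another 4 overlapped clusters of both shoot sets and 1 overlapped none. The remaining class, an overlap with the Mo17-named shoot set alone, had 0 of 41, which allows a share of up to 7.32%. Over all 2845 unpartnered B73 root clusters, 1619 (56.9%) overlapped B73 shoot alone, 473 both shoot sets, 65 Mo17-named shoot alone and 688 neither. Among the 11723 B73 root clusters that had a root partner, 2.29% overlapped B73 shoot alone. The Mo17-named set showed the same kind of split, with 3323 of 6526 unpartnered clusters (50.9%) overlapping the shoot set of the same name alone, against 5.22% of its partnered clusters. However, 1611 of the 6526 (24.7%) had clusters in both shoot sets, so that B73 lacked a listed cluster there only in root. Of its 18 unpartnered clusters with a signal of 100 and over, 10 overlapped Mo17-named shoot alone, 5 both shoot sets, 1 B73 shoot alone and 2 neither. Read mapping is shared by both tissues, and its part in these splits was not tested. Which clusters a set lists depends on thresholds that no source used here states, and the highest cluster numbers in the names, 37028 and 49152, exceed the clusters listed, so an unpartnered cluster is not listed in the other set and is not shown to be absent.

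The 5 strongest unpartnered clusters of B73 root each overlapped a B73 shoot cluster and no Mo17-named shoot cluster. The first, at position 21158675 of chromosome 4 (plus strand), had a signal of 1239 from 1702 dominant-site tags in B73 root and 314 in B73 shoot. The nearest Mo17-named root cluster lay 403 bp away, with a signal of 8.45. The next, at 184764951 of chromosome 4 (minus strand), had 1052 in root and 122 in shoot, and its nearest Mo17-named root cluster was 40143 bp away. Positions 3847892 and 3966859 on the plus strand of chromosome 7 had nearly the same values, with 628 and 623 in root from 2091 and 2079 tags, and 233 tags each in B73 shoot. Both clusters were 1 bp wide. Whether these places are copies that share tags was not tested. The last of the 5, at 206612866 of chromosome 5 (minus strand), had 516 in root and 92.8 in B73 shoot.

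The 5 strongest unpartnered clusters of Mo17-named root were less uniform. The first, at 19815374 of chromosome 5 (minus strand), had a signal of 790 from 4705 tags and was present at the same base in both shoot sets, with 426 in B73 shoot and 349 in Mo17-named shoot. Its gap was thus to B73 root alone. In contrast, those at 44815986 of chromosome 7 (minus strand), with 719, and at 199716594 of chromosome 3 (plus strand), with 312, overlapped Mo17-named shoot clusters of 370 and 61.9 and no B73 shoot cluster. The cluster at 172645011 of chromosome 7 (plus strand) went against its set name, with 294 in Mo17-named root, 296 in B73 shoot and no overlapping cluster in Mo17-named shoot. The last, at 10565034 of chromosome 6 (plus strand), had 286 and overlapped no shoot cluster at all.

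Unpartnered clusters also lay side by side along chromosomes. In runs of neighbouring clusters of 1 root set, unbroken by a partnered cluster, the longest run had 6 clusters in B73 root and 13 in Mo17-named root, and there were 10 and 88 runs of 5 or more. The set with more unpartnered clusters has more runs by its makeup, and how many runs a random order would give was not tested. The strongest of the 6-cluster runs of B73 root, between 5468093 and 5840146 of chromosome 4, had a summed signal of 65.8, and Mo17-named root had 2 clusters with 55.1 in the same span. The runs from 93206955 to 95437895 and from 57069986 to 58033730 of chromosome 2 had 43.8 and 29.5 in B73 root, and Mo17-named root had 38.4 and 20.8 there. In these spans the summed signals of the sets were thus of like size, although the clusters of B73 root had no partner. A run of 6 weak clusters from 165543866 to 165544357 of chromosome 3 had 3.17 in B73 root and 0.828 in Mo17-named root. The span with the widest gap among the 5 was a run of 5 clusters from 118332130 to 118461189 of chromosome 7, with 360 in B73 root and 3 clusters with 10.6 in Mo17-named root. There the B73 shoot set had 4 clusters with 67.1 and the Mo17-named shoot set 4 with 15.4. In Mo17-named root the longest run, with 13 clusters and a summed signal of 32.4, spanned 106696507 to 109950422 of chromosome 4, where B73 root had 5 clusters with 3.59. Both shoot sets were well filled in that span, with 41 clusters in B73 shoot and 55 in Mo17-named shoot. The next run began at 1079599 of chromosome 4, just after the strongest start site of both sets, and ended at 1154083. It had 12 clusters with a summed signal of 109 in Mo17-named root, and 1 cluster with 0.575 in B73 root.

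Signal was compared over the 11389 pairs in which each cluster overlapped exactly 1 cluster of the other root set. The signals of the sets followed each other with a Spearman rho of 0.735 across pairs, given as a description because pairs share their libraries and depth. The rule for a call was a log2 difference of (signal + 1) of at least 2, which is 4-fold and understates weak clusters, where the stronger cluster reached a signal of 1. On signal, 1101 pairs (9.67% of those compared) were higher in Mo17-named root and 217 pairs (1.91%) were higher in B73 root. The median difference, Mo17-named minus B73, was 0.70 on this scale, so the whole set of pairs was shifted towards the Mo17-named set and most calls lie on the shifted side. On scaled tags the median was -0.08, and 487 pairs (4.28%) were higher in Mo17-named root and 601 (5.28%) in B73 root. The Mo17-named set held 83.5% of the calls on signal and 44.8% on scaled tags, so which root set has more high start sites turned with the scale. On both scales together, 455 pairs (4.0%) were higher in Mo17-named root and 211 (1.85%) in B73 root. Nearly all B73 calls on signal, 211 of 217, were thus also calls on tags, while 455 of the 1101 Mo17-named calls were.

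**Figure D2:**
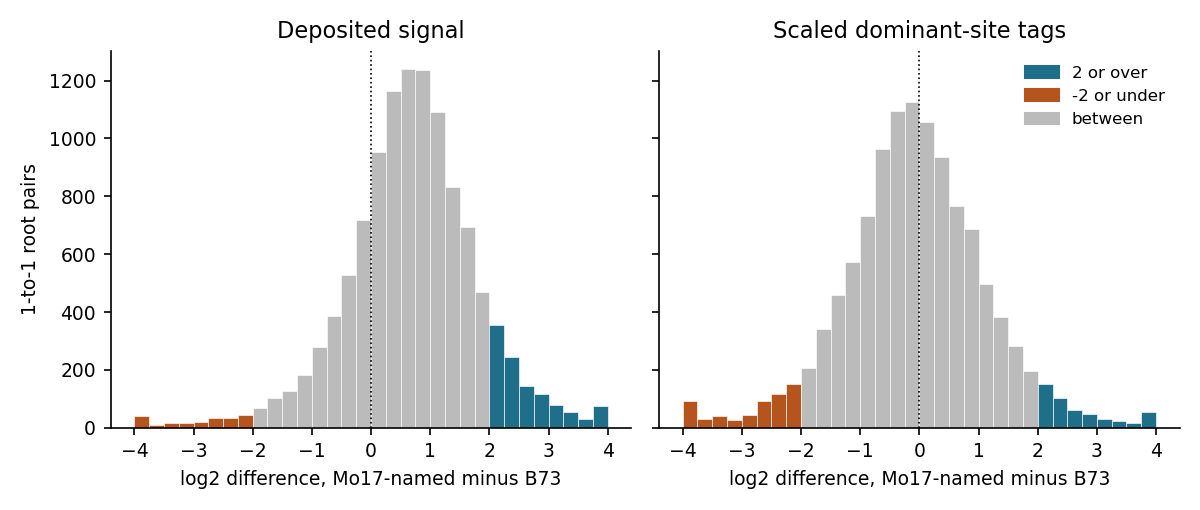
Number of 1-to-1 root pairs (vertical axis) by log2 difference of Mo17-named minus B73 root (horizontal axis, bins of 0.25), on deposited signal (left) and on scaled tags (right), each after adding 1. Coloured bars lie at 2 or over and at -2 or under, the outermost bars hold all pairs beyond them, and the dotted line marks 0. The middle of the pairs lies at 0.70 on the left and -0.08 on the right.

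The shift depended on strength. Where the stronger cluster of a pair had a signal of 1 to 5, the median log2 difference was 0.41 on signal and -0.35 on scaled tags. Where it had 10 to 20 the medians were 0.87 and 0.01, and at 100 and over they were 0.73 and 0.26. Among the 830 pairs of that strongest class, 151 were called higher in Mo17-named root and 63 in B73 root on signal, and 114 and 92 on tags. Strong pairs were thus split more evenly between the lines than weak ones on signal, where the class of 5 to 10 had 155 calls for Mo17-named root and 6 for B73 root.

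The largest differences in favour of B73 root were steep on either scale. At position 209957236 of chromosome 2 (minus strand) the signal was 1700 in B73 root from 3317 dominant-site tags, and 3.68 in Mo17-named root from 26 tags, whose dominant site lay 7 bp away. The log2 difference was -8.51, and the ratio of scaled tags was 282 (exact binomial interval 192 to 432). At 138678367 of chromosome 9 (plus strand) the signal was 1172 in B73 root and 2.67 in Mo17-named root, a log2 difference of -8.32. At both loci the shoots split the same way, with 367 in B73 shoot and 4.80 in Mo17-named shoot at the first, and 221 and 0.486 at the second.

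The next 3 differences in favour of B73 root had the same dominant base in both root sets. At 128648282 of chromosome 6 (plus strand) the signal was 1251 in B73 root and 8.33 in Mo17-named root, and the shoots had 199 and 7.56. At 146789926 of chromosome 10 (minus strand) it was 1231 in B73 root and 11.1 in Mo17-named root, and the shoots had 255 and 3.16. These bases were used in both root sets, with scaled tags 318 and 240 times higher in B73 root. B73 shoot had the same dominant bases, while those of Mo17-named shoot were 128648284 and 146789930. At 156004252 of chromosome 3 (minus strand) the roots had 310 in B73 and 2.09 in the Mo17-named set, but the shoots were close to each other, with 237 and 226. The root values of this start site were far apart and its shoot values were close.

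In the other direction the differences were smaller rank by rank, although the first of them exceeded the 2 last of the B73 list in size. At 114204689 of chromosome 10 (plus strand) the signal was 2.49 in B73 root from 7 tags and 361 in Mo17-named root from 2366 tags, a log2 difference of 6.70. The shoots had 97.2 in B73 and 206 in the Mo17-named set there, so the low value was that of B73 root. At 71344072 of chromosome 3 (plus strand) the signal was 28.0 in B73 root and 2387 in Mo17-named root, and the shoots had 74.6 and 674. At 75010750 of chromosome 2 (plus strand) it was 1.05 in B73 root and 149 in Mo17-named root, and the shoots had 36.3 and 168. At 164655804 of chromosome 1 (plus strand) it was 3.50 in B73 root and 243 in Mo17-named root, while the shoots turned slightly the other way with 22.6 and 14.7. At 129853315 of chromosome 6 (plus strand) it was 0.575 in B73 root from 3 tags and 71.9 in Mo17-named root, with dominant sites 34 bp apart, and the shoots had 3.52 and 48.7.

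Line differences of root were followed into shoot at 9880 loci, where a root pair overlapped 1 shoot pair through the clusters of both lines. Differences in favour of B73 recurred more often than those in favour of the Mo17-named set, but on signal the calls are not alike. The median root difference was 0.70 on signal, so B73 calls lay further from the middle of the pairs than Mo17-named calls. On scaled tags, with a median of -0.08, the limits were nearly even. Of 180 root pairs higher in B73 on signal, 81 were also higher in B73 shoot beyond 4-fold, 45.0% (Wilson interval 37.9 to 52.3), and 0 were higher in Mo17-named shoot, which allows a share of up to 1.67%. Of 995 root pairs higher in the Mo17-named set, 69 were also higher in Mo17-named shoot, 6.93% (5.52 to 8.68), and 3 were higher in B73 shoot. Over all 9880 linked loci, 1.69% were higher in B73 shoot and 1.84% in Mo17-named shoot, so both shares were above the background. On scaled tags the shares were 155 of 511 (30.3%) for B73 and 61 of 443 (13.8%) for the Mo17-named set, against 3.37% and 2.31% of all linked loci. In the opposite direction on scaled tags, 5 of the 511 (0.978%) were higher in Mo17-named shoot. Of the 443, 16 (3.61%) were higher in B73 shoot, close to the 3.37% of all linked loci. The shoot difference had the sign of the root call at 70.3% of the 511 and 52.4% of the 443. On both scales the shares in the same direction were 75 of 176 (42.6%) and 40 of 416 (9.62%), against 1.48% and 1.22%. The median shoot difference of the 180 loci was -1.76, and that of the 995 was 0.42, close to the 0.33 of loci called in neither direction in root. Across all linked loci the root and shoot differences had a Spearman rho of 0.15 on signal and 0.04 on tags, given as a description. The root and shoot sets hold no common library, but each line's sets share its genotype, and read mapping is shared by both tissues. The part of mapping in the recurrence was not tested, so shoot is not an independent check of the root differences.

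**Figure D3:**
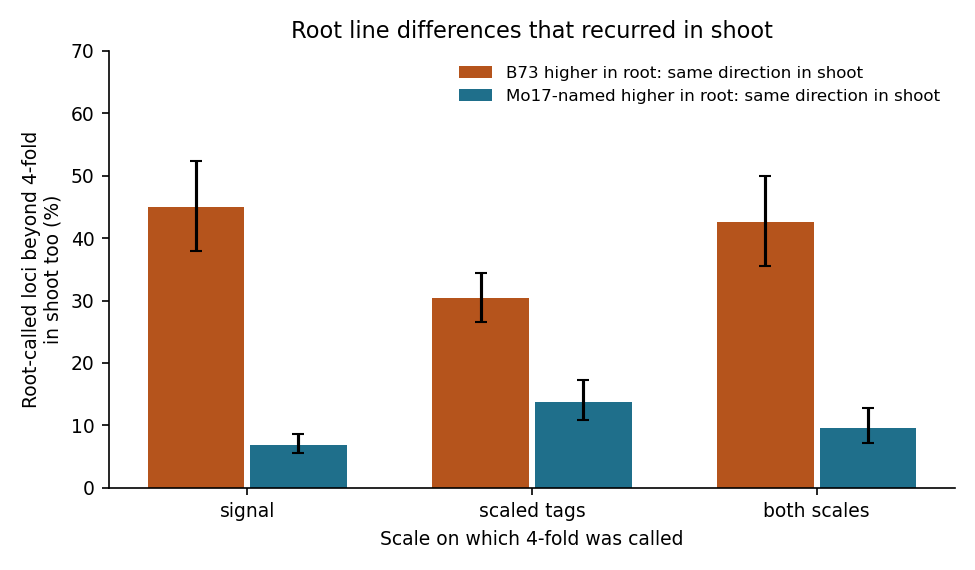
Share of root pairs beyond 4-fold between the lines whose shoot pair was also beyond 4-fold in the same direction (vertical axis, percent), for the 3 scales of the call (horizontal axis). Bars with 95% Wilson intervals show pairs higher in B73 root and pairs higher in Mo17-named root. The B73 bars are the taller on each scale, with 45.0% against 6.93% on signal. Because the middle of the root pairs lies at 0.70 on signal, B73 calls lie further from it than Mo17-named calls there.

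Loci that differed on both scales in both tissues numbered 75 in favour of B73 and 40 in favour of the Mo17-named set. Apart from loci already described, the leading ones include 85027919 of chromosome 1 (plus strand), with a signal of 120 in B73 root, 2.24 in Mo17-named root, 101 in B73 shoot and 1.27 in Mo17-named shoot. In favour of the Mo17-named set the first was 22438539 of chromosome 1 (minus strand), with 59.3 in B73 root, 2099 in Mo17-named root, 110 in B73 shoot and 2203 in Mo17-named shoot. The B73 value was higher in shoot than in root, and the Mo17-named values of both tissues were close on this scale alone. Before scaling for depth, the Mo17-named dominant-site tags were 13555 in root and 29792 in shoot, and those of B73 214 and 532. At 231539615 of chromosome 2 (minus strand) the 4 values in the same order were 4.97, 132, 2.08 and 60.4. At 12513732 of chromosome 1 (plus strand) they were 27.6, 527, 7.23 and 90.6. The dominant bases of the root sets differed at each of these 4 loci, by 10, 5, 23 and 7 bp. Among the leading loci already described, 146789926 of chromosome 10 and 128648282 of chromosome 6 had the same base in both root sets.

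Dominant bases were compared next, as positions along the direction of transcription. The base was the same in 5332 of 11389 root pairs, 46.8% (Wilson interval 45.9 to 47.7), and lay more than 10 bp apart in 2691 pairs, 23.6%. The pairs that did not match were lopsided. In 1546 pairs (13.6%, 13.0 to 14.2) the Mo17-named site lay exactly 1 bp upstream of the B73 site, and in 154 pairs (1.35%, 1.16 to 1.58) it lay 1 bp downstream. The upstream share was 13.8% on the plus strand and 13.4% on the minus strand, and from 12.3% to 15.1% over the 10 chromosomes. Well covered pairs showed it too, with 11.5% against 0.582% of the 1202 pairs with at least 100 tags in both sets. Of the 91 pairs with at least 1000 tags in both, 8 had the Mo17-named site 1 bp upstream and 0 had it 1 bp downstream, which allows a share of up to 3.30%.

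The offset appeared in the 3 comparisons of sets that include B73 root, and not in the 3 that leave it out. Against B73 shoot, whose sites were 1 bp upstream in 14.0% of 12356 pairs and 1 bp downstream in 1.34%, B73 root was shifted in the same way. Against Mo17-named shoot the shares were 14.3% and 1.19% of 11109 pairs. In the 3 comparisons without B73 root, the shares on either side lay between 1.52% and 1.82%. Pairs with the same base made up 46.8% to 49.2% in the 3 comparisons with B73 root and 64.0% to 68.6% in the others. At the 5390 linked loci where the other 3 sets had the same dominant base, B73 root had that base at 3418 (63.4%), the base 1 bp downstream at 934 (17.3%, 16.3 to 18.4) and the base 1 bp upstream at 34 (0.631%). Each of the other 3 sets, measured in the same way, lay 1 bp downstream at 0.214% to 0.466% of loci. With at least 100 tags in all 4 sets, B73 root lay 1 bp downstream at 91 of 607 loci (15.0%) and 1 bp upstream at 0, which allows a share of up to 0.494%.

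**Figure D4:**
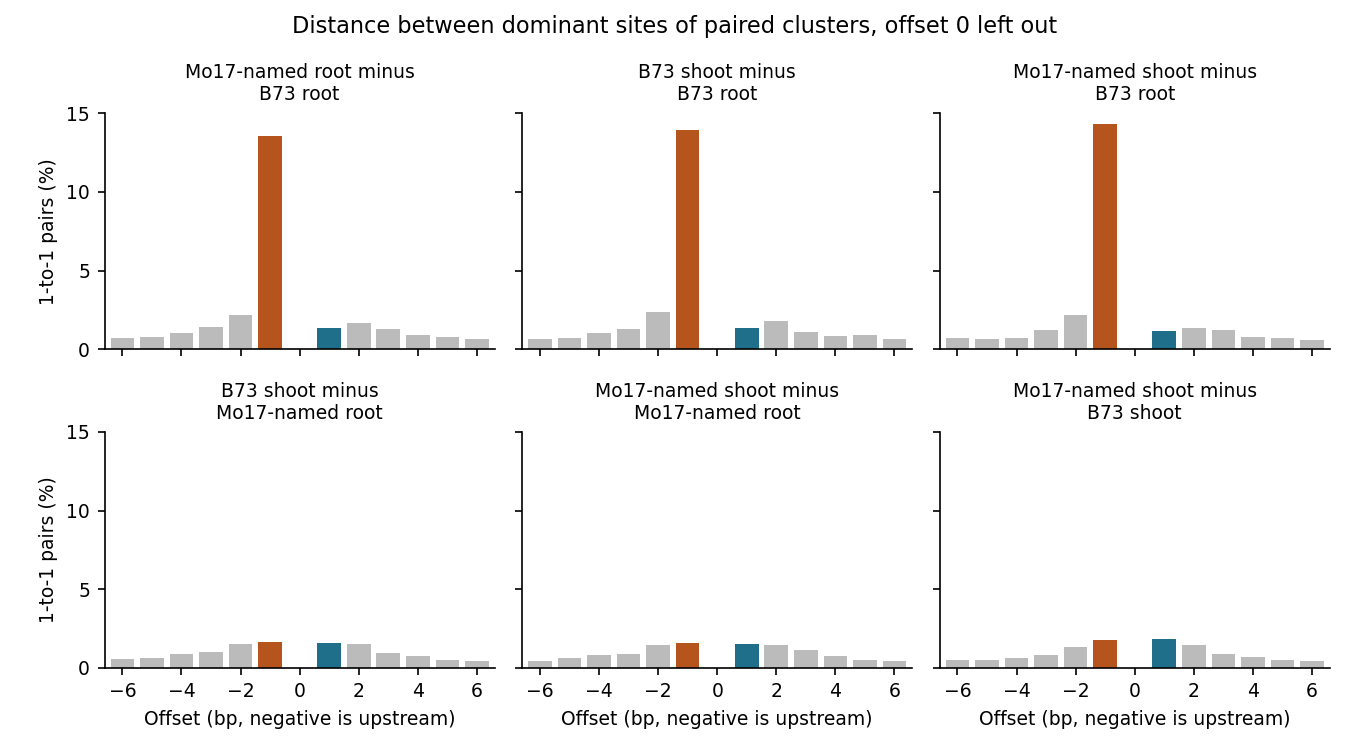
Distance between the dominant sites of paired clusters in the 6 comparisons of 2 sets (horizontal axis, bp along the direction of transcription, negative where the set before "minus" in a panel's title lies upstream of the set after it), as a share of 1-to-1 pairs (vertical axis, percent). Offset 0 is left out. The 3 upper panels, each with B73 root, have a bar of 13.6% to 14.3% at -1, and the 3 lower panels have no bar above 2%, apart from the omitted one.

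Clusters of the B73 root set also differed in their weaker sites. Clusters of 2 positions made up 9.92% of B73 root clusters and 4.80% to 7.28% of the other sets, and in B73 root the weaker position was upstream of the dominant one in 71.8% of them, against 58.0% to 60.8% elsewhere. B73 root libraries are also those with 16 PCR cycles, and the part of the cycles in the offset was not tested. Differences of 1 bp between the root sets are therefore not read as line differences here. Counting a Mo17-named site 1 bp upstream as the same base, a rule chosen after the data had been seen, gave 60.4% of root pairs with the same base.

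Line differences of the dominant base that do not rest on B73 root alone were those where both tissues of a line used the same base. At 490 of 9880 linked loci (4.96%) each line had its own base in root and shoot alike. At 233 loci (2.36%) each tissue had its own base in both lines. Among the 718 loci with at least 100 tags in all 4 sets these were 22 (3.06%) and 5 (0.696%). Of the 2691 root pairs more than 10 bp apart, the Mo17-named site was the downstream one in 53.5%, so wide separations leaned far less to 1 side than the 1 bp ones.

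The 5 widest separations with at least 100 tags in both root sets ran from 130 to 166 bp. At the widest, in a cluster on the minus strand of chromosome 5, the B73 site was 213332784 and the Mo17-named site 213332950, with a signal of 60.7 in B73 root and 55.5 in Mo17-named root. The dominant base took 43.4% of the B73 root signal and 25.8% of the Mo17-named root signal. B73 shoot had its dominant site at the B73 root base, 213332784, and Mo17-named shoot had its own at 213332947, 3 bp from the Mo17-named root base. On the plus strand of chromosome 7, B73 root used 160072022 and Mo17-named root 160071865, 157 bp apart, while the shoot sets used 160072021 and 160072023. There Mo17-named root was the set that stood apart. On the minus strand of chromosome 6, B73 root used 11335609 and Mo17-named root 11335739, and both shoot sets used 11335609. Another locus, on the plus strand of chromosome 6, had 10643445 in B73 root and 10643296 in Mo17-named root, in broad clusters whose dominant base took 29.9% and 15.1% of the signal. The remaining one, at 157462449 and 157462604 of chromosome 8 (plus strand), joins clusters that overlap at their edges. The B73 root cluster ended at 157462605 and the Mo17-named one began at 157462603. The width of the B73 root cluster, 157 bp, reached into this overlap, so B73 root also had starts near the Mo17-named base.

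Cluster shape was compared last. Widths are those between the 10th and the 90th percentile of the signal along the cluster, and clusters of at most 10 bp were called sharp. Both clusters were sharp in 4224 root pairs and broad in 4720, so 78.5% (Wilson interval 77.8 to 79.3) kept their class, against 84.8% of shoot pairs. The pairs that did not keep it leaned to B73: 1625 (14.3%) were sharp in B73 root alone and 820 (7.20%) in Mo17-named root alone, a ratio of 1.98. In shoot pairs the same counts were 1245 and 1063, which makes a ratio of 1.17. Over these root pairs the median width was 10 bp in B73 and 18 bp in the Mo17-named set.

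Depth differs between the root sets, so pairs were also counted by their dominant-site tags. With at least 100 tags in both root sets, 126 pairs were sharp in B73 root alone and 51 in Mo17-named root alone, a ratio of 2.47, while the shoot counts were 108 and 114. Among 2695 root pairs whose dominant-site tags differed by less than 1.5 times, the counts were 516 and 136, a ratio of 3.79, and the ratio in shoot pairs chosen in this way was 1.43. Dominant-site tags depend on shape, since a broad cluster holds more tags in all than a sharp one with the same number at its dominant base, and total tags per cluster were not matched. The part of depth in the lean was not tested. A shape score in the files, higher for sharper clusters and equal to 2 plus p log2(p) summed over positions, with p their tag share, gave 1219 and 574 pairs sharp in 1 set alone with a limit of -1. At the finest scale, however, B73 root clusters were the wider ones: 424 pairs were 2 bp wide in B73 root and 1 bp in Mo17-named root, and 112 the reverse, against 191 and 177 in shoot. In root pairs with the same dominant base the counts were 138 and 93, and with tags within 1.5 times they were 43 and 30, so the lean was weaker in both subsets. The 1 bp offset of the dominant base in B73 root stands beside these counts, and its part in them was not tested.

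**Figure D5:**
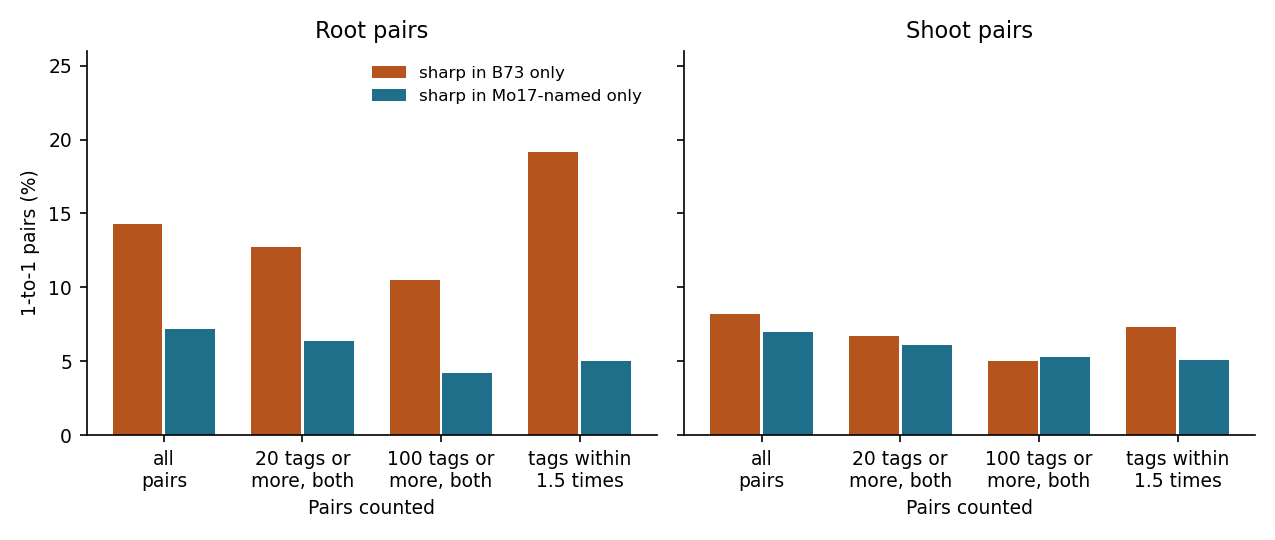
Share of 1-to-1 pairs (vertical axis, percent) that were sharp, at most 10 bp wide, in B73 alone or in the Mo17-named set alone, for root pairs (left) and shoot pairs (right). The horizontal axis gives which pairs were counted: all, those with at least 20 or 100 dominant-site tags in both sets, and those whose tags differ by less than 1.5 times. The B73 bars are the taller in each root class, with 14.3% against 7.20% over all root pairs.

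Dominant bases and signal calls were also counted by shape class. Pairs sharp in both sets had the same dominant base in 60.4% and a base more than 10 bp apart in 0.900%, and pairs broad in both had 36.8% and 43.3%. Overlapping clusters of at most 10 bp leave little room for bases more than 10 bp apart. This contrast thus follows in part from the class rule, and how far was not tested. The 1 bp offset was present in each class, in 18.1% of pairs sharp in both, 17.0% of those sharp in B73 alone, 9.11% of those broad in both and 9.27% of those sharp in Mo17-named root alone. On both scales, calls higher in Mo17-named root made up 9.88% of pairs sharp in Mo17-named root alone and 1.48% of those sharp in B73 root alone. Calls higher in B73 root made up 2.68% and 3.08% of the same classes. By count, 81 Mo17-named calls were sharp in Mo17-named root alone and 24 in B73 root alone. Of the B73 calls, 50 were sharp in B73 root alone and 22 in Mo17-named root alone. The class sharp in B73 root alone was the larger, with 1625 pairs against 820. A call on both scales requires a 4-fold difference in dominant-site tags, and these depend on shape. Calls and shape are thus linked in part by the rule itself, and how far was not tested.

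The largest width differences between root sets were in clusters with starts near both ends of a long stretch. At 43765620 of chromosome 1 (plus strand) the dominant base was the same in all 4 sets, with 135 tags in B73 root and 111 in Mo17-named root. The width was 2 bp in B73 root and 182 bp in Mo17-named root, with the dominant base taking 60.6% and 31.5% of the signal. At 180458886 of chromosome 5 (minus strand) the width was 1 bp in B73 root and 170 bp in Mo17-named root, from 261 and 259 tags. The reverse was seen at 212126625 of chromosome 4 (plus strand), with 181 bp in B73 root and 8 bp in Mo17-named root. At the remaining new locus, 84569790 of chromosome 2 (minus strand), the width was 3 bp in B73 root and 176 bp in Mo17-named root, and the place overlapped 8 clusters of B73 shoot and 11 of Mo17-named shoot. The chromosome 8 locus described above is the fifth.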

How the data were processed

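CAGE tags of roots and shoots were processed with tools among which the submitters' processing notes list Bowtie2 2.0.4. For the build, the clustering tool and its thresholds, no source used here gives a name. The authors deposited a normalized signal per cluster and dominant site and a shape score per cluster. From these, dominant-site tags were computed by inverting each set's power law, and they came out whole within 0.01 tags for 100% of sites. The score formula matched within 0.002 for 100% of the clusters of 2 positions. Sets were taken by their names. They were not matched to single libraries, and 0 other columns of sample values were present. The rules had foreseen a single pooled value per set and no test.

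Named loci are the 5 strongest clusters of each root set, the 5 largest log2 differences in each direction, the 5 strongest clusters without a partner, the 5 widest separations and width differences with at least 100 tags in both sets, and the longest runs. For the loci that differ in both tissues, and for those lists where fewer are described, the choice was made after seeing the values. Members and lists were chosen with earlier results of these data known. Shares have 95% Wilson intervals and tag ratios exact binomial (Clopper-Pearson) intervals. A count of 0 was given the limit of 3 counts. Depth was 1267305 dominant-site tags in B73 root and 2797561 in Mo17-named root. The pairing, size rule, offsets and tag recovery were tested on simulated data. Alternatives changed the overlap, signal minimum, fold, pseudocount, normalization, tag minimum and width limit. The software was numpy 2.4.6, scipy 1.17.1, pandas 2.3.3 and, for plots, matplotlib 3.10.9, under Python 3.11.15.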

Additional observations from a re-analysis of the deposited data

Results flagged for a closer look

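At 3 loci the line difference beyond 4-fold had opposite directions in root and shoot on signal. On scaled tags, 16 of 443 loci higher in Mo17-named root were higher in B73 shoot, and 5 of 511 went the other way. The 3 loci on signal are described here. With 1 pooled value per set, the difference between the tissues was not tested. At 147170826 of chromosome 1 (plus strand) the log2 difference, Mo17-named minus B73, was 3.66 in root, where B73 had a signal of 0.417 from 2 tags and the Mo17-named set 16.9 from 71 tags. It was -2.18 in shoot, where B73 had 15.9 and the Mo17-named set 2.72. At 41935542 of chromosome 2 (minus strand) it was 2.22 in root, with 5.83 in B73 and 30.8 in the Mo17-named set, and -3.80 in shoot, with 247 and 16.8. On scaled tags the root difference at this locus was 1.65, under 4-fold. At 1428505 of chromosome 9 (minus strand) it was 2.79 in root, with 49.7 in B73 and 350 in the Mo17-named set, and -2.02 in shoot, with 83.1 and 19.7. This is the best covered of the 3, with 133 and 2073 tags in root and 520 and 132 in shoot.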

How the results depend on the processing

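No paired analysis was possible because each set is 1 pooled value per cluster with no replicate. Partner shares of 80.5% (B73 root) and 64.5% (Mo17-named root) became 84.2% and 70.2% when clusters within 100 bp counted, 77.1% and 61.6% when 50% of the shorter cluster had to overlap, and 88.2% and 81.6% for clusters whose signal reached 5, and the Mo17-named share was 65.4% outside dense runs. Calls higher in Mo17-named root numbered 1101, and 405 where both signals reached 5, 4187 at 2-fold, 1655 with a pseudocount of 0.1 and 487 on scaled tags. Calls higher in B73 root numbered 217, and 110, 696, 274 and 601 in the same order, and 424 when totals left out the 10 strongest clusters, where the Mo17-named calls were 816. After quantile normalization they were 745 and 284. The median log2 difference of 0.70 became 0.80 with a higher signal of at least 5, 0.59 with at least 5 in both, 0.81 with a pseudocount of 0.1, 0.45 after quantile normalization, 0.30 without the 10 strongest in the totals and -0.0816, reversed, on scaled tags. By construction the scales differ in more than the exponents of 1.09 and 1.01. Signal is that of the whole cluster, while scaled tags count the dominant base alone and are divided by the set's dominant-site tags. The part of each in the reversal was not tested.

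The share with the same dominant base, 46.8%, became 58.7% with at least 20 tags in both, 72.6% with at least 100, 76.4% when bases within 10 bp counted and 60.4% when a Mo17-named base 1 bp upstream counted. Pairs sharp in B73 root alone and in Mo17-named root alone, 14.3% and 7.20%, became 12.8% and 6.38% with at least 20 tags, 10.5% and 4.24% with at least 100, 10.7% and 5.04% by score, and 19.1% and 5.05% with dominant-site tags within 1.5 times, where total tags were not matched. The shares recurring in shoot, 45.0% (B73) and 6.93% (Mo17-named), became 30.3% and 13.8% on tags, 36.1% and 5.36% where all 4 signals reached 5, and 42.6% and 9.62% on both scales. The causes of the changes under these alternatives were not tested. The rules for a base 1 bp upstream, for tags within 1.5 times and for both scales were chosen after seeing the data. The 10 named differences kept their direction in 40 of 40 values under 4 alternatives. They were picked as the largest differences of these data, of 5.53 or more in size, so a turn of direction was hardly possible. Thresholds of the cluster lists and the depth of B73 root limit what an unlisted weak cluster shows.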
